A study of Danio rerio with 6 samples.

Results

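Osteoblasts were compared with CMP, the cells that the labels call chondrogenic mesenchymal progenitors, across all genes measured in zebrafish tail fins that were growing back. The comparison took 4 of the 6 libraries of the series, the 2 titled Osteoblast and the 2 titled CMP. The other 2 libraries, of osteogenic mesenchymal progenitors (OMP), are set beside some results. They also entered the filter on low counts, the scaling and the statistical fit, where they add to the estimate of spread. Members were taken by sample title, so no measured value chose them. RNA of cells sorted by fluorescence was sequenced from adult caudal fins 14 days after amputation. Genes were read from raw counts, with the transcript of the highest total over the 6 libraries standing for its gene.

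The osteoblast libraries are titled EGFP-negative and sp7-positive, the CMP libraries EGFP-positive and sp7-negative, and the OMP libraries positive for both. All 3 groups carried the same transgenes: the driver sox9a:Cre-ERt2 together with cryaa:EGFP, the switch reporter Ola.Actb:loxp-TagBFP-loxp-EGFP, and the osteoblast reporter Ola.Sp7:mCherry. In these fish a drug-inducible Cre under sox9a control turns a broadly driven TagBFP reporter into an EGFP reporter. The mCherry transgene reports a medaka sp7 promoter, and the cryaa promoter is that of a lens crystallin. The EGFP label therefore follows cells with a sox9a history only as far as that Cre line recombined. The labels give no age in months, no drug dose, and no statement that the replicates came from separate fish or pools. The p-values thus measure the spread between these libraries, which may be technical.

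Osteoblasts of fin rays lay down bone directly on a collagen membrane, without a cartilage template. They secrete type I collagen, the vitamin K-dependent protein osteocalcin, acidic phosphoproteins and, in fish, type X collagen, and they raise the local phosphate supply so that hydroxyapatite forms. The mesenchyme inside and between the rays holds fibroblast-like cells that make actinotrichia, the stiff fibres of the fin edge, and a loose matrix of hyaluronan and small leucine-rich proteoglycans. Sox9a is a transcription factor of skeletal precursors and cartilage, and sp7 (osterix) one that osteoblasts need.

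After 1 transcript per gene was kept, the osteoblast libraries held 3915569 and 5069316 reads and the CMP libraries 4234250 and 4868453. A few genes dominated the osteoblast libraries: the 10 most abundant took 37.5% and 40.2% of their reads, against 22.6% and 17.7% in CMP. Genes of the early response and heat shock list took 19.2% and 9.02% of reads in osteoblasts and 22.0% and 14.1% in CMP. Their share thus followed the replicate number more than the group. The part of tissue handling in it was not tested. In bulk RNA of sorted cells, fewer cells of a type and less RNA per cell cannot be told apart. Counting intervals and bounds given for genes with few reads cover counting error only.

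The sort genes were set beside the titles first. Sp7 had 491 and 762 reads in osteoblasts, against 9 and 13 in CMP, and stood at 161 and 175 CPM in osteoblasts, against 1.99 and 2.18 in CMP (log2FC 6.31, SE 0.40, edgeR adjusted p = 3.97e-05). The mCherry reporter of sp7 had 2455 and 8136 reads in osteoblasts, against 3 and 47 in CMP, so both osteoblast libraries were high for the gene and for its reporter. EGFP stood at 796 and 950.01 CPM in osteoblasts, against 868 and 803 in CMP (log2FC 0.06, edgeR adjusted p = 0.945). The EGFP reads of the libraries titled osteoblast thus went against their EGFP-negative label, at the level of the EGFP-positive CMP. The design text of the series gives its sp7-positive osteoblasts as derived from cells with sox9a, and the count columns of these libraries are headed Ob-GR and Ob-GR2, so the labels do not settle the EGFP state of the sort. TagBFP, the unrecombined form of the reporter, had 67 and 192 reads in osteoblasts, against 287 and 1233 in CMP and no call (edgeR adjusted p = 0.114). Sox9a stood at 12.1 and 7.79 CPM in osteoblasts, against 54.1 and 38.1 in CMP and was lower in osteoblasts (log2FC -2.22, SE 0.44, edgeR adjusted p = 0.0115), a call lost without osteoblast replicate 2 (0.0902) or CMP replicate 1 (0.0839).

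Many markers of differentiated cartilage had few reads in either group. Col2a1a and comp had 0 reads in all 4 libraries. Acana, acanb, matn1, matn3b, col9a1a, col9a1b, col9a2, col9a3, hapln1b, epyc and lect1 had 0 to 12 reads over the osteoblast libraries and 0 to 30 over the CMP libraries, with more in CMP for each of them but col9a1b. Of these, col9a1a and col9a3 passed the filter and neither was called. These reads are not scaled for depth. Other members of the cartilage list with few reads had more in osteoblasts and were not tested. They were sox9b (11 reads in osteoblasts, against 4 in CMP), ihhb (9 against 3), barx1 (7 against 1) and ucmab (3 against 0). Abundant markers went both ways: hapln1a, which ties aggrecan-type proteoglycans to hyaluronan, was higher in CMP (349 and 321 CPM in osteoblasts, against 3656 and 4182 in CMP), the fibril collagen gene col11a2 was higher in osteoblasts (13032 and 13069 reads in osteoblasts, against 3 and 47 in CMP), and col2a1b was not called (351 and 232 CPM in osteoblasts, against 451 and 435 in CMP). The name CMP is used here as the labels give it.

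Of 13399 genes that passed the filter on low counts, 524 (3.91%) were higher and 756 (5.64%) were lower in osteoblasts than in CMP, 1280 (9.55%) in all. A gene was called at an adjusted p under 0.05 in the quasi-likelihood test of edgeR. The adjustment was that of Benjamini and Hochberg over all genes tested, here and for each adjusted p below. Log2FC stands for the log2 fold change of osteoblasts over CMP, and SE for its standard error. By the fitted fold change 1005 of the called genes differed at least 4-fold, 404 of them higher and 601 lower. Fitted differences of at least 32-fold were found for 124 higher and 188 lower genes. For genes with no or few reads in 1 group the fitted value depends on the prior count. These counts therefore include genes not shown to differ that much, such as myh11a. It had 0 reads in osteoblasts and 116 in CMP, which bounds it at 27.3-fold. The smallest called log2 fold change was 1.03 in size and the median size was 3.21. Groups did not overlap for any of the 1280 called genes, beside 6429 (48.0%) of all genes tested. With library totals in place of TMM scaling, the median log2 fold change of all genes was -0.50 in place of -0.02, and 392 genes were higher and 1268 lower. Without osteoblast replicate 2 the test called 817 genes, without CMP replicate 1 it called 845, and without CMP replicate 2 it called 734. Of the 1280 genes, 604 were called whichever of the 4 libraries was left out, and the genes described below belong to these unless said otherwise. The gene lists below were chosen with earlier results of these data known, so their counts describe and give no independent support. The share called in each list is to be read beside the 9.55% over all genes tested.

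**Figure D1:**
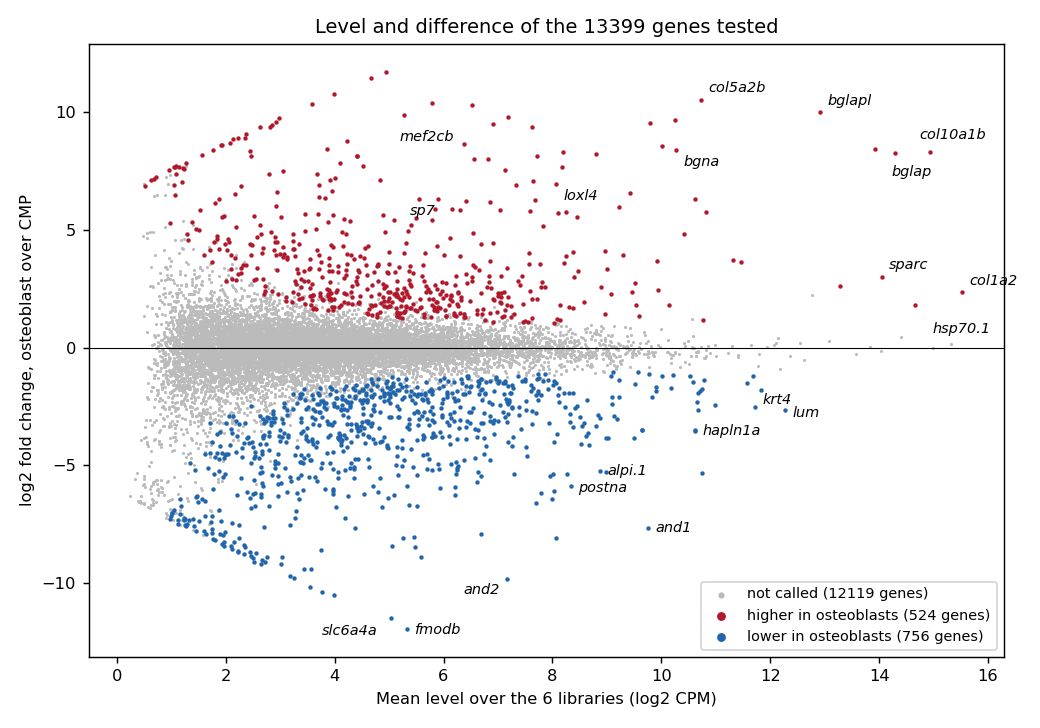
Each point is 1 of the 13399 genes tested, with its mean level over the 6 libraries in log2 CPM on the x axis and the log2 fold change of osteoblasts over CMP on the y axis. Red points are the 524 genes higher in osteoblasts, blue points the 756 lower ones and grey points the rest; osteoblast matrix genes such as bglap and col10a1b lie at the upper right, and the curved outer edges hold genes with no or few reads in 1 group, whose fitted fold change depends on the prior count.

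Bone matrix genes ranked at the top of the osteoblast transcriptome by CPM. The type X collagen gene col10a1b took 5.997% and 9.28% of all reads in osteoblasts, against 0.0420% and 0.0227% in CMP. The type I collagen gene col1a2 took 6.45% and 6.49% of osteoblast reads, against 1.69% and 1.88% of CMP reads. Scaled by transcript length, the osteocalcin gene bglap was the most abundant transcript of osteoblasts, at 156840 CPM per kilobase against 503 CPM per kilobase in CMP. The shortest transcripts were left out of this ranking. Collagen genes as a family took 21.2% and 25.7% of osteoblast reads and 5.37% and 5.19% of CMP reads. In CMP the most abundant genes by CPM were the heat shock genes hsp70.1, hsp70.3, hsp70l and hsp90aa1.2, followed by col1a2. In osteoblasts these heat shock genes ranked 5, 8, 9 and 12. Mean CPM was higher in osteoblasts for hsp70.1 (42666 against 38531 in CMP) and hsp70l (24325 against 17824). It was lower for hsp70.3 (32335 against 32847) and hsp90aa1.2 (15912 against 17651). The hsp70 genes are near-identical copies, so the split of reads among them is uncertain.

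Clone and locus names and genes under a mean log2 CPM of 4 left aside, the largest rises were of genes that CMP hardly expressed. Znf385c, a zinc finger gene, had 244 and 307 reads in osteoblasts, against 0 and 0 in CMP and was at least 260.01-fold higher. Megf10, a membrane receptor with EGF repeats, had 565 and 637 reads in osteoblasts, against 1 and 0 in CMP (1702-fold higher with a counting interval of 305 to 67266). The carbonic anhydrase gene cahz had 751 and 1322 reads in osteoblasts, against 0 and 2 in CMP (1467-fold higher with a counting interval of 406 to 12124). These 3 genes were close to absent in CMP and moderately expressed in both osteoblast libraries. The adhesion gene cadm1b followed with 387 and 456 reads in osteoblasts, against 1 and 0 in CMP (1193-fold higher with a counting interval of 214 to 47192), as did proser2 with 145 and 271 reads in osteoblasts, against 1 and 0 in CMP (589-fold higher with a counting interval of 105 to 23316).

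Other genes at the top of the rises were far more abundant. The type V collagen gene col5a2b stood at 5901 and 4191 CPM in osteoblasts, against 4.86 and 2.01 in CMP (log2FC 10.54, SE 0.71, edgeR adjusted p = 5.51e-05). The osteocalcin-like gene bglapl stood at 17314 and 28793 CPM in osteoblasts, against 23.4 and 21.6 in CMP (log2FC 10.00, SE 0.70, edgeR adjusted p = 7.35e-05). Col11a2, a fibril collagen known best from cartilage, stood at 4264 and 2995 CPM in osteoblasts, against 0.662 and 7.86 in CMP (log2FC 9.67, SE 0.93, edgeR adjusted p = 2.82e-04). These 3 collagen and osteocalcin genes were abundant in both osteoblast libraries and nowhere above 23.4 CPM in CMP. Mmp20b, whose mammalian counterpart cleaves enamel proteins, stood at 433 and 439 CPM in osteoblasts, against 0 and 0.837 in CMP and hhipl2, a relative of the hedgehog-interacting protein, at 407 and 305 CPM in osteoblasts, against 0 and 0.837 in CMP. The collagen gene listed as prp, which a later RefSeq table names col22a1, stood at 742 and 432 CPM in osteoblasts, against 0.883 and 0.837 in CMP (log2FC 9.37, SE 0.93, edgeR adjusted p = 3.36e-04). The transcription factor gene mef2cb stood at 256 and 219.97 CPM in osteoblasts, against 0.442 and 0.669 in CMP (log2FC 8.64, SE 0.45, edgeR adjusted p = 2.19e-05).

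The smallest p-values among the rises were those of col10a1a, bglap, bgna, cpa6, loxl4, mef2cb, bmp8a and tmem119a. Bgna, a biglycan of bone matrix, stood at 3290.2 and 3928 CPM in osteoblasts, against 9.05 and 12.2 in CMP (log2FC 8.40, SE 0.36, edgeR adjusted p = 8.39e-06). Cpa6, a carboxypeptidase of extracellular matrix, stood at 561 and 607 CPM in osteoblasts, against 4.196 and 4.35 in CMP (log2FC 7.09, SE 0.35, edgeR adjusted p = 1.92e-05). Tmem119a, whose mammalian counterpart takes part in osteoblast differentiation, stood at 587 and 606 CPM in osteoblasts, against 8.39 and 7.19 in CMP (log2FC 6.26, SE 0.34, edgeR adjusted p = 2.42e-05). In each of these genes the 2 osteoblast libraries lay close together and far above both CMP libraries.

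The largest falls were of genes nearly silent in osteoblasts. Fmodb, which encodes the collagen-binding proteoglycan fibromodulin, had 0 and 0 reads in osteoblasts, against 566 and 538 in CMP and was at least 259.9-fold lower. The serotonin transporter gene slc6a4a had 0 and 0 reads in osteoblasts, against 334 and 498 in CMP (at least 196-fold lower). Chrdl2, a chordin-like antagonist of BMP, had 1 and 0 reads in osteoblasts, against 344 and 478 in CMP (581-fold lower with a counting interval of 104 to 22962). The osteoblast libraries held 1 read of these 3 genes in all. Lrrc32, which holds latent TGF-beta at the cell surface, had 1 and 0 reads in osteoblasts, against 346 and 243 in CMP (416-fold lower with a counting interval of 74.4 to 16461). Rgs5a, a regulator of G protein signalling, had 1 and 0 reads in osteoblasts, against 130 and 507 in CMP (449.96-fold lower with a counting interval of 80.5 to 17800.00). Cyp1c1, a cytochrome P450, had 3 and 0 reads in osteoblasts, against 568 and 664 in CMP (290.1-fold lower with a counting interval of 99.03 to 1409). CMP replicate 2 held more rgs5a than CMP replicate 1, while lrrc32 ran the other way.

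Tgm2b and ccl44, also among the largest falls, were likewise nearly silent in osteoblasts. The transglutaminase gene tgm2b, whose product cross-links matrix proteins, stood at 0.327 and 0.917 CPM in osteoblasts, against 129 and 208 in CMP (log2FC -7.93, SE 0.68, edgeR adjusted p = 1.57e-04). The chemokine gene ccl44 had 1 and 0 reads in osteoblasts, against 136 and 217 in CMP (249-fold lower with a counting interval of 44.5 to 9876). By p-value the falls were led by ptx3a, a long pentraxin of innate immunity, at 7.198 and 5.04 CPM in osteoblasts, against 489.8 and 579 in CMP (log2FC -6.46, SE 0.39, edgeR adjusted p = 3.15e-05). Postna, a periostin of collagen matrix, stood at 9.49 and 10.5 CPM in osteoblasts, against 477 and 723 in CMP (log2FC -5.90, SE 0.39, edgeR adjusted p = 5.47e-05). Fbln2, a fibulin, stood at 4.91 and 3.44 CPM in osteoblasts, against 233 and 198 in CMP (log2FC -5.70, SE 0.39, edgeR adjusted p = 5.51e-05). In all 3 genes both osteoblast libraries were at or under 10.5 CPM while both CMP libraries were at or above 198 CPM. Clec19a, a C-type lectin gene (-5.40), and the netrin guidance gene ntn1a (-4.95) were among the same 8.

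**Figure D2:**
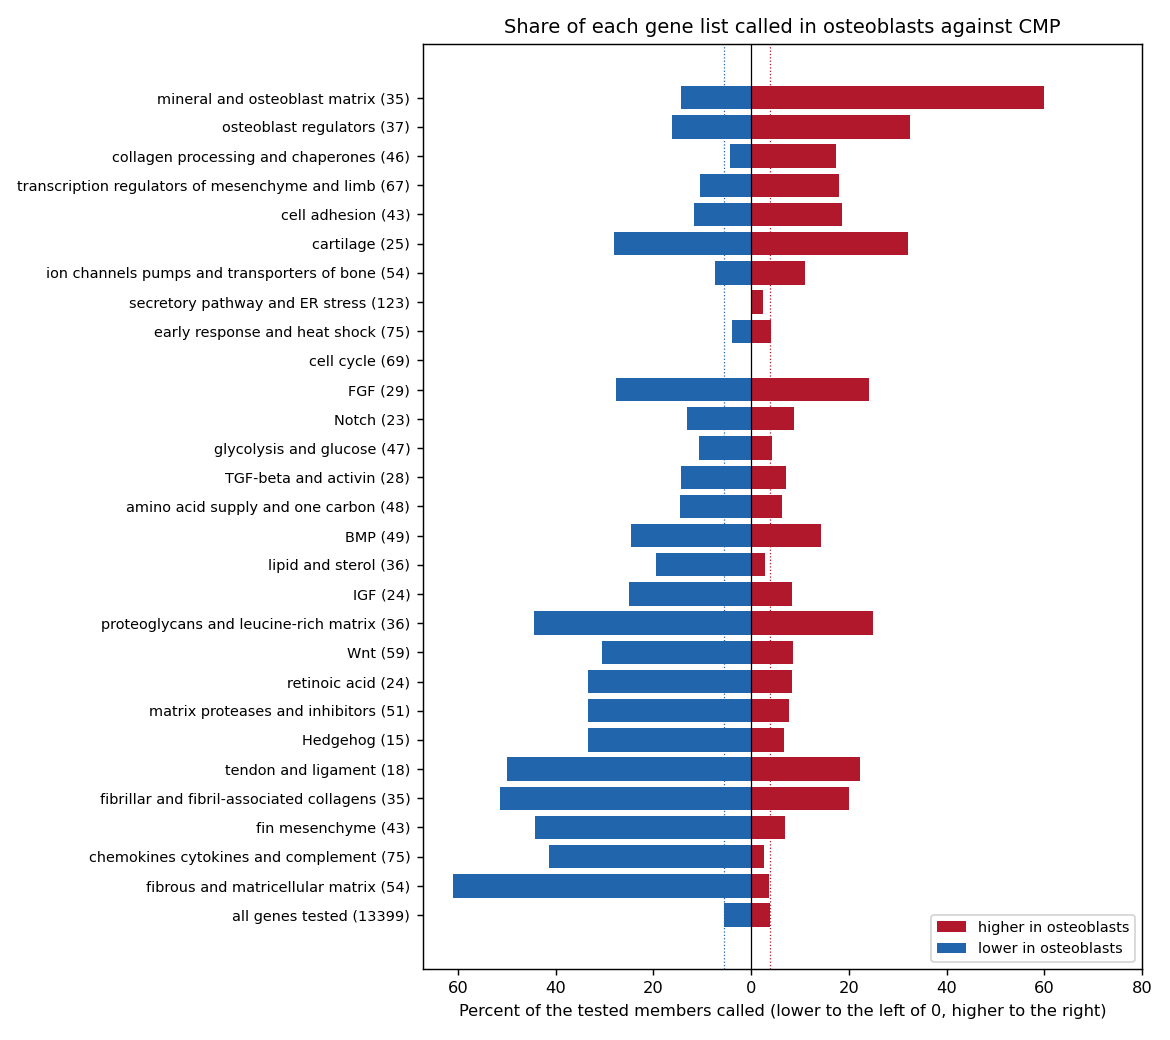
For each gene list, with the number of its members tested in brackets, bars give the percent of tested members called higher (red, to the right of 0) and lower (blue, to the left of 0) in osteoblasts than in CMP; dotted lines mark the shares over all genes tested, 3.91% and 5.64%. The mineral and osteoblast matrix list reaches furthest to the right and the fibrous and matricellular matrix list furthest to the left.

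Mineral and bone matrix genes rose in large part. Of 45 such genes in the table, 35 were tested, and 21 were higher and 5 lower in osteoblasts (median log2FC 3.54, beside -0.02 over all genes tested). The list took 18.6% and 26.2% of reads in osteoblasts, against 0.879% and 1.08% in CMP. Bglap, osteocalcin, stood at 55432 and 61260.00 CPM in osteoblasts, against 152 and 222 in CMP (log2FC 8.28, SE 0.33, edgeR adjusted p = 6.61e-06). Type X collagen rose in both copies, with col10a1a at 40876 and 50532 CPM in osteoblasts, against 126 and 135 in CMP (log2FC 8.45, SE 0.33, edgeR adjusted p = 6.61e-06) and col10a1b at 76833 and 107800.00 CPM in osteoblasts, against 393 and 185 in CMP (log2FC 8.32, SE 0.48, edgeR adjusted p = 3.08e-05). Sparc, the calcium-binding osteonectin, was high in both cell types but higher in osteoblasts, at 32672 and 40356 CPM in osteoblasts, against 4347 and 4697 in CMP (log2FC 3.01, SE 0.24, edgeR adjusted p = 1.24e-04). The osteopontin gene spp1, which encodes a secreted phosphoprotein bound to mineral, stood at 3592 and 2963 CPM in osteoblasts, against 91.4 and 141 in CMP (log2FC 4.82, SE 0.41, edgeR adjusted p = 1.61e-04). Scpp1, another secretory calcium-binding phosphoprotein, stood at 309 and 254 CPM in osteoblasts, against 1.32 and 0.837 in CMP (log2FC 8.02, SE 0.48, edgeR adjusted p = 3.08e-05), and its relatives scpp5 and scpp8 had 9 and 4 reads in osteoblasts and 0 in CMP and were not tested. Ifitm5, a membrane protein of bone-forming cells, stood at 2412 and 3711 CPM in osteoblasts, against 5.2999 and 10.5 in CMP (log2FC 8.58, SE 0.48, edgeR adjusted p = 3.08e-05).

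Several genes of phosphate handling and other members of the mineral list also rose. Phospho1, a phosphatase that frees phosphate inside matrix vesicles, stood at 98.8 and 174 CPM in osteoblasts, against 1.104 and 2.18 in CMP (log2FC 6.32, SE 0.52, edgeR adjusted p = 1.35e-04). Entpd5a, an ectonucleotidase that fish need for bone mineral, stood at 5332 and 4904 CPM in osteoblasts, against 114 and 73.5 in CMP (log2FC 5.77, SE 0.37, edgeR adjusted p = 4.26e-05). Phex, a peptidase of phosphate control, stood at 554 and 362 CPM in osteoblasts, against 33.1 and 45.7 in CMP (log2FC 3.54, SE 0.35, edgeR adjusted p = 3.33e-04). The phosphate importers slc20a1a (3.78) and slc20a2 (1.51) were higher, though slc20a2 lost its call without osteoblast replicate 2 (0.15) or CMP replicate 1 (0.137) or CMP replicate 2 (0.159). Slc20a1b, a further importer of that family, differed by 0.42 with no call. The secreted kinase genes fam20a (4.42) and fam20cb (2.24) rose, and fam20ca had 154 and 156 reads in osteoblasts, against 4 and 0 in CMP. Smpd3, a sphingomyelinase whose loss in mice impairs bone mineral, had 97 and 207 reads in osteoblasts, against 0 and 5 in CMP. The hormone gene fgf23 had 22 and 17 reads in osteoblasts, against 0 and 0 in CMP (at least 18.4-fold higher), and its call was lost without osteoblast replicate 1 (0.15) or osteoblast replicate 2 (0.09) or CMP replicate 1 (0.108) or CMP replicate 2 (0.146). Panx3, a membrane channel of bone and cartilage cells, stood at 709.7 and 1010.5 CPM in osteoblasts, against 4.42 and 3.85 in CMP (log2FC 7.70, SE 0.46, edgeR adjusted p = 3.08e-05).

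Some genes of the mineral list did not follow. Tissue-nonspecific alkaline phosphatase, alpl, stood at 42.9 and 30.02 CPM in osteoblasts, against 36.4 and 76.5 in CMP and was not called (log2FC -0.64, edgeR adjusted p = 0.52). Its relative alpi.1, listed under the name of the intestinal type, was higher in CMP, with 42.5 and 25.7 CPM in osteoblasts, against 1351 and 1242 in CMP (log2FC -5.25, SE 0.38, edgeR adjusted p = 9.61e-05). The mineral inhibitor gene mgp (-0.84), the pyrophosphate source enpp1 (0.73) and the pyrophosphate transporter genes ankha (0.17) and ankhb (1.73) were not called. Ucmaa, a Gla protein of skeletal matrix, was lower in osteoblasts at 109 and 151 CPM in osteoblasts, against 405 and 456 in CMP (log2FC -1.73, SE 0.29, edgeR adjusted p = 0.00464), and OMP held more of it than either, at 2523 and 3291 CPM. The Wnt inhibitor gene sost, sclerostin, had 3 and 0 reads in osteoblasts, against 161 and 179 in CMP (80.1-fold lower with a counting interval of 27.2 to 390.1). Tnfsf11, the RANK ligand that drives osteoclast formation, had 2 and 0 reads in osteoblasts, against 61 and 85 in CMP (51.6-fold lower with a counting interval of 14.02 to 429.8). The keratan sulfate proteoglycan gene omd had 0 and 9 reads in osteoblasts, against 97 and 298 in CMP, a call lost without osteoblast replicate 1 (0.077) or CMP replicate 2 (0.146).

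**Figure D3:**
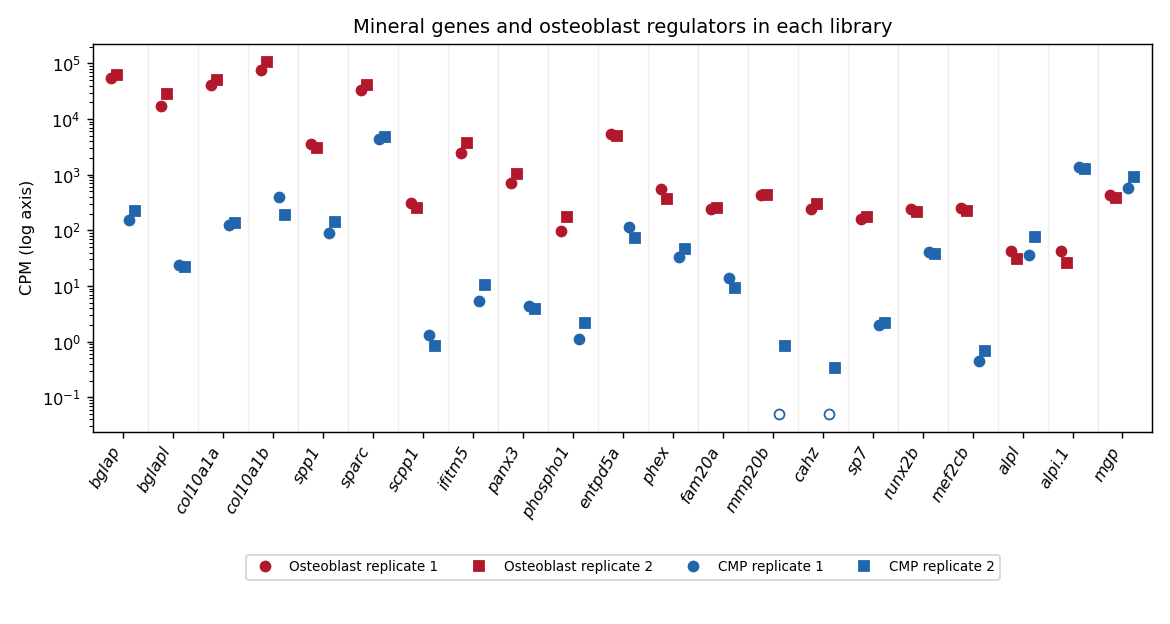
Level of 21 mineral and regulator genes in each library, in CPM on a log axis, with osteoblasts in red and CMP in blue (circles replicate 1, squares replicate 2, open symbols at the bottom for 0 reads). Osteoblast points lie above CMP points for the genes from bglap to mef2cb, while alpl overlaps and alpi.1 is higher in CMP.

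Of 43 osteoblast regulator genes in the table, 37 were tested, of which 12 were higher and 6 lower in osteoblasts (median log2FC 0.24; 11 higher and 10 lower, with a median of -0.25, with library totals). Sp7, by which the libraries are titled, was among the 12 higher, so its direction was set by the sort. The rises also included runx2b, the master regulator of bone cells beside sp7, at 244 and 214 CPM in osteoblasts, against 40.4 and 37.5 in CMP (log2FC 2.55, SE 0.30, edgeR adjusted p = 8.21e-04). Its other copy runx2a was lower in level but also higher in osteoblasts (25.2 and 17.6 CPM in osteoblasts, against 5.52 and 3.68 in CMP), a call lost without osteoblast replicate 1 (0.0805) or CMP replicate 1 (0.0554) or CMP replicate 2 (0.14). Runx3 stood at 236 and 175 CPM in osteoblasts, against 32.02 and 10.4 in CMP (log2FC 3.28, SE 0.56, edgeR adjusted p = 0.00542). These 3 Runx genes were thus called higher in osteoblasts with all libraries in the fit. Mef2aa (2.06) rose as mef2cb did, and mef2ca stood at 86.4 and 38.5 CPM in osteoblasts, against 7.95 and 5.35 in CMP but lost its call without CMP replicate 2 (0.0569). Creb3l1, a membrane-bound factor of bone collagen production, stood at 166 and 118 CPM in osteoblasts, against 24.95 and 29.6 in CMP (log2FC 2.38, SE 0.35, edgeR adjusted p = 0.00244). Cdh11, the osteoblast cadherin, stood at 1315 and 1074 CPM in osteoblasts, against 92.5 and 64.6 in CMP (log2FC 3.93, SE 0.32, edgeR adjusted p = 1.30e-04), whereas the N-cadherin gene cdh2 stood at 54.6 and 22.9 CPM in osteoblasts, against 163 and 118 in CMP and lost its call without osteoblast replicate 2 (0.17) or CMP replicate 1 (0.159) or CMP replicate 2 (0.0679). Msx2a had 13 and 17 reads in osteoblasts, against 0 and 0 in CMP (at least 14.2-fold higher), a call lost without osteoblast replicate 1 (0.15) or CMP replicate 1 (0.169) or CMP replicate 2 (0.223). Pth1ra, the parathyroid hormone receptor (27.5 and 16.04 CPM in osteoblasts, against 4.196 and 2.51 in CMP), lost its call without osteoblast replicate 1 (0.0911) or CMP replicate 1 (0.0692) or CMP replicate 2 (0.162).

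Other homeobox and helix-loop-helix genes of the list than msx2a were called lower or not called. Msx2b stood at 2.62 and 5.499 CPM in osteoblasts, against 57.2 and 80.8 in CMP (log2FC -4.04, SE 0.55, edgeR adjusted p = 0.00161), msx3 at 131 and 116 CPM in osteoblasts, against 419 and 412 in CMP (log2FC -1.75, SE 0.27, edgeR adjusted p = 0.00329) and dlx4b at 2.29 and 6.42 CPM in osteoblasts, against 49.7 and 65.1 in CMP (log2FC -3.67, SE 0.52, edgeR adjusted p = 0.002). These 3 homeobox genes of fin and skeletal precursors were lower in osteoblasts. Dlx2a (54.6 and 82.7 CPM in osteoblasts, against 216 and 164 in CMP) and twist1a (168 and 129 CPM in osteoblasts, against 382 and 407 in CMP), a brake on bone formation in mammals, were called lower. Neither held when a library was left out: dlx2a lost its call without osteoblast replicate 1 (0.176) or osteoblast replicate 2 (0.053) or CMP replicate 1 (0.18) or CMP replicate 2 (0.0727), and twist1a without osteoblast replicate 1 (0.0734) or osteoblast replicate 2 (0.224) or CMP replicate 1 (0.118) or CMP replicate 2 (0.16). Dlx5a (-0.06), dlx3b (-0.96), msx1b (-0.71), twist2 (-0.55), atf4a (0.44) and lef1 (0.07) were not called. Without CMP replicate 1 or 2, 12 and 11 members of this list were called.

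More genes of fibril collagens and their relatives fell than rose. Of 39 such collagen genes in the table, 35 were tested, of which 7 were higher and 18 lower in osteoblasts (median log2FC -1.69). Col1a1a, a chain of type I collagen, stood at 22362 and 17601 CPM in osteoblasts, against 3236 and 3187 in CMP (log2FC 2.64, SE 0.24, edgeR adjusted p = 2.24e-04), and its partner col1a2 at 82649 and 75428 CPM in osteoblasts, against 15844 and 15346 in CMP (log2FC 2.34, SE 0.21, edgeR adjusted p = 2.25e-04). Both type I genes were also abundant in CMP. Col6a4a, a chain of the microfibril collagen VI, stood at 2.62 and 8.48 CPM in osteoblasts, against 231 and 273 in CMP (log2FC -5.45, SE 0.50, edgeR adjusted p = 2.24e-04). Col12a1b, a collagen that coats fibrils, stood at 326 and 149 CPM in osteoblasts, against 3177 and 2141 in CMP (log2FC -3.49, SE 0.42, edgeR adjusted p = 8.71e-04). Osteoblast replicate 1 held more col12a1b than osteoblast replicate 2, and both were far below CMP.

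Genes that modify and cross-link collagen were called in 10 of 46 tested (48 in the table), 8 of them higher in osteoblasts and 2 lower (median log2FC 0.64). With library totals 6 were higher and 4 lower, and with the replicate number as a block 19 and 5. Loxl4, a lysyl oxidase that cross-links collagen, stood at 817 and 707 CPM in osteoblasts, against 6.18 and 6.02 in CMP (log2FC 6.96, SE 0.35, edgeR adjusted p = 1.92e-05). Its relatives loxa (766 and 1409 CPM in osteoblasts, against 102 and 114 in CMP; log2FC 3.34, SE 0.38, edgeR adjusted p = 6.75e-04) and loxl3a (40.2 and 38.7 CPM in osteoblasts, against 4.86 and 2.34 in CMP; log2FC 3.47, SE 0.46, edgeR adjusted p = 0.00136) rose less. OMP held more loxl3a than osteoblasts did, at 97.9 and 65.8 CPM. The prolyl hydroxylase gene p4ha1b stood at 58.6 and 65.8 CPM in osteoblasts, against 10.2 and 8.87 in CMP (log2FC 2.71, SE 0.36, edgeR adjusted p = 0.00156), and pcolceb, which speeds the trimming of procollagen, at 878 and 821 CPM in osteoblasts, against 145 and 69.9 in CMP (log2FC 2.99, SE 0.42, edgeR adjusted p = 0.00189). The collagen chaperone gene serpinh1b differed by replicate number and not by group, at 9948 and 2701 CPM in osteoblasts, against 7606 and 3323 in CMP, with no call.

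Cartilage and joint genes were called in both directions. Of 43 such genes in the table, 25 were tested, of which 8 were higher and 7 lower in osteoblasts (median log2FC -0.29; 6 and 8 with library totals). Beside col11a2, the rises held prg4a, a lubricin of joint surfaces, at 668 and 618 CPM in osteoblasts, against 179 and 68.8 in CMP (log2FC 2.38, SE 0.43, edgeR adjusted p = 0.00748), and evx1, a homeobox gene of fin ray joints, at 153 and 212 CPM in osteoblasts, against 14.8 and 19.6 in CMP (log2FC 3.41, SE 0.34, edgeR adjusted p = 3.65e-04). OMP held more prg4a than osteoblasts, at 1539 and 1154 CPM. Ihha, the skeletal hedgehog ligand, stood at 26.5 and 21.8 CPM in osteoblasts, against 2.43 and 0.837 in CMP (log2FC 3.90, SE 0.68, edgeR adjusted p = 0.00581). Col11a1b stood at 1636 and 1323 CPM in osteoblasts, against 379.8 and 468 in CMP and lost its call without CMP replicate 1 (0.0513). Also called higher were nkx3.2 (55 and 21 reads in osteoblasts, against 1 and 0 in CMP), sox6 (18.3 and 11.9 CPM in osteoblasts, against 1.77 and 3.85 in CMP) and chad (238 and 292 CPM in osteoblasts, against 115 and 99.6 in CMP). These 3 calls did not hold in each fit with a library left out: nkx3.2 was lost without osteoblast replicate 1 (0.0831) or CMP replicate 2 (0.0627), sox6 without osteoblast replicate 1 (0.199) or osteoblast replicate 2 (0.0727) or CMP replicate 1 (0.207) or CMP replicate 2 (0.0762), and chad without osteoblast replicate 1 (0.0527) or osteoblast replicate 2 (0.17) or CMP replicate 1 (0.134) or CMP replicate 2 (0.232).

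Lower in osteoblasts was hapln1a (log2FC -3.55, SE 0.28, edgeR adjusted p = 1.15e-04), for which no library was near the other group. Sox9a, which drives the Cre behind the EGFP label, was also counted among the lower genes of the list. Cilp, a protein of intermediate cartilage layers, stood at 3.599 and 2.98 CPM in osteoblasts, against 280.2 and 118 in CMP (log2FC -5.92, SE 0.67, edgeR adjusted p = 6.14e-04) and its relative cilp2 at 13.4 and 13.7 CPM in osteoblasts, against 112 and 138 in CMP (log2FC -3.20, SE 0.32, edgeR adjusted p = 3.32e-04). The joint-forming ligand gene gdf5 had 0 and 0 reads in osteoblasts, against 29 and 22 in CMP (at least 12.01-fold lower), and its call was lost without osteoblast replicate 1 (0.0662) or osteoblast replicate 2 (0.114) or CMP replicate 1 (0.147) or CMP replicate 2 (0.084). Gdf6a (12.8 and 13.5 CPM in osteoblasts, against 58.1 and 33.6 in CMP) lost its call without osteoblast replicate 1 (0.121) or osteoblast replicate 2 (0.127) or CMP replicate 1 (0.225), and matn4 (45.5 and 57.1 CPM in osteoblasts, against 121 and 171 in CMP) without osteoblast replicate 1 (0.103) or osteoblast replicate 2 (0.0582) or CMP replicate 2 (0.143). Without either osteoblast replicate, 9 genes of the cartilage list were called. Col2a1b (-0.60), col11a1a (-0.66) and sox5 (0.64) were not called.

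Proteoglycan genes were called in both directions, more of them lower. Of 41 genes in the table, 36 were tested, of which 9 were higher and 16 lower in osteoblasts (median log2FC -1.38). The list's share of reads was 0.711% and 0.713% in osteoblasts, against 1.75% and 2.07% in CMP. Prelp, a proline and arginine rich leucine-rich repeat protein, stood at 22.2 and 26.1 CPM in osteoblasts, against 407 and 512 in CMP (log2FC -4.24, SE 0.35, edgeR adjusted p = 1.33e-04). Lum, lumican of fibrous stroma, stood at 1382 and 1119.8 CPM in osteoblasts, against 7149 and 8415 in CMP (log2FC -2.64, SE 0.28, edgeR adjusted p = 4.51e-04) and dcn, decorin, at 515 and 467 CPM in osteoblasts, against 1684 and 2012 in CMP (log2FC -1.91, SE 0.25, edgeR adjusted p = 0.00136). Vcanb, a versican that binds hyaluronan, stood at 18.6 and 16.04 CPM in osteoblasts, against 238 and 260.01 in CMP (log2FC -3.85, SE 0.33, edgeR adjusted p = 1.55e-04). The biglycan copies went the other way, with bgnb at 234 and 180.3 CPM in osteoblasts, against 3.53 and 3.35 in CMP (log2FC 5.90, SE 0.54, edgeR adjusted p = 2.25e-04) beside bgna. Lumican and decorin remained abundant in osteoblasts, while both biglycan genes were at or under 12.2 CPM in CMP.

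Most of the fibrous and matricellular matrix genes tested fell. The table held 62 such genes and 54 were tested, of which 2 were higher and 33 lower in osteoblasts (median log2FC -2.23). Beside postna, fbln2 and tgm2b, emilin2b, an elastin interface protein, stood at 4.58 and 2.06 CPM in osteoblasts, against 119 and 91.02 in CMP (log2FC -5.02, SE 0.45, edgeR adjusted p = 2.16e-04). The exception named here was wisp1b, a CCN family gene that acts in bone, at 1334 and 2618 CPM in osteoblasts, against 26.3 and 15.6 in CMP (log2FC 6.56, SE 0.49, edgeR adjusted p = 1.07e-04). Tnc, tenascin C of regenerating matrix, stood at 11.1 and 13.3 CPM in osteoblasts, against 103 and 76.3 in CMP (log2FC -2.87, SE 0.34, edgeR adjusted p = 8.46e-04).

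Matrix proteases and their inhibitors included 4 genes higher and 17 lower among 51 tested of 69 in the table (median log2FC -0.60). Htra1b, a secreted serine protease, stood at 111 and 136 CPM in osteoblasts, against 1282 and 1537 in CMP (log2FC -3.51, SE 0.29, edgeR adjusted p = 1.35e-04). The membrane metalloproteinase gene mmp15a stood at 44.8 and 43.8 CPM in osteoblasts, against 223 and 289 in CMP (log2FC -2.53, SE 0.30, edgeR adjusted p = 7.49e-04) and the inhibitor gene timp4.3 at 20.9 and 11.7 CPM in osteoblasts, against 224 and 223 in CMP (log2FC -3.79, SE 0.44, edgeR adjusted p = 6.75e-04). Cpxm2, a carboxypeptidase relative, fell too (-3.53). The collagenase gene mmp13a had 0 and 1 reads in osteoblasts, against 103 and 156 in CMP (183-fold lower with a counting interval of 32.5 to 7254), whereas the gelatinase gene mmp9 was higher in osteoblasts at 418 and 288 CPM in osteoblasts, against 69.6 and 47.5 in CMP (log2FC 2.59, SE 0.37, edgeR adjusted p = 0.00207). Without CMP replicate 1 or 2, 14 and 12 genes of the protease list were called.

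**Figure D4:**
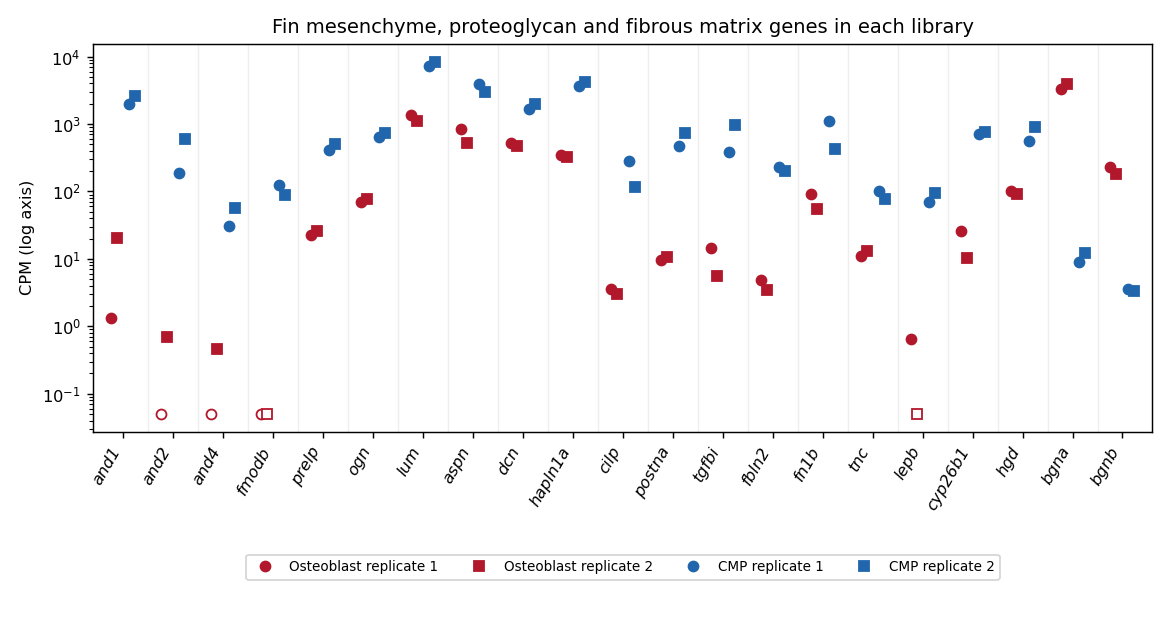
Level of 21 fin mesenchyme, proteoglycan and fibrous matrix genes in each library, in CPM on a log axis, with osteoblasts in red and CMP in blue (circles replicate 1, squares replicate 2, open symbols at the bottom for 0 reads). CMP points lie above osteoblast points for the genes from and1 to hgd, and the 2 biglycan genes at the right run the other way.

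More genes of fin mesenchyme fell than rose. Of 51 in the table, 43 were tested, of which 3 were higher and 19 lower in osteoblasts (median log2FC -1.75). The actinodins, structural proteins of actinotrichia, were nearly absent from osteoblasts. And1 stood at 1.31 and 20.2 CPM in osteoblasts, against 1983 and 2579 in CMP (log2FC -7.68, SE 1.06, edgeR adjusted p = 0.0017), and2 had 0 and 3 reads in osteoblasts, against 843 and 3554 in CMP (1035-fold lower with a counting interval of 354 to 5022) and and4 had 0 and 2 reads in osteoblasts, against 140 and 339 in CMP (169-fold lower with a counting interval of 46.6 to 1401). Most actinodin reads of osteoblasts came from replicate 2. Lepb, a leptin gene that is switched on in regenerating zebrafish tissue, had 2 and 0 reads in osteoblasts, against 317 and 572 in CMP (314-fold lower with a counting interval of 86.7 to 2597). Fhl1a, a LIM domain gene, stood at 3.599 and 6.19 CPM in osteoblasts, against 374 and 591 in CMP (log2FC -6.59, SE 0.52, edgeR adjusted p = 1.16e-04). The transcription factor gene prrx1b of limb mesenchyme stood at 8.51 and 6.65 CPM in osteoblasts, against 61.8 and 60.4 in CMP (log2FC -3.02, SE 0.39, edgeR adjusted p = 0.00127), while its copy prrx1a was not called (273 and 280.5 CPM in osteoblasts, against 265 and 433 in CMP). The chemokine gene cxcl12a stood at 78.2 and 53.6 CPM in osteoblasts, against 539 and 517 in CMP (log2FC -3.004, SE 0.35, edgeR adjusted p = 6.76e-04). Ebf1a, a factor of mesenchymal and fat precursors, had 0 and 9 reads in osteoblasts, against 348 and 389 in CMP.

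The 3 mesenchyme genes above CMP were meox2a (67.4 and 61.9 CPM in osteoblasts, against 8.17 and 14.6 in CMP; log2FC 2.50, SE 0.40, edgeR adjusted p = 0.00402), mmp9 and tbx18. Tbx18 (109 and 90.5 CPM in osteoblasts, against 43.9 and 37.1 in CMP) lost its call without osteoblast replicate 1 (0.123) or osteoblast replicate 2 (0.0686) or CMP replicate 1 (0.117) or CMP replicate 2 (0.222). Pdgfra (-0.38), pdgfrl (-0.34), dpt (0.21), cx43 (-0.90) and the posterior Hox genes hoxa13a (0.49) and hoxa13b (-0.02) were not called. Thy1, a fibroblast surface gene, differed by replicate number, at 0.327 and 8.02 CPM in osteoblasts, against 0.221 and 30.3 in CMP. Of 22 Hox genes tested, 1 was called: hoxb13a had 3 and 0 reads in osteoblasts, against 131 and 60 in CMP (44.97-fold lower with a counting interval of 15.2 to 220.01), a call lost without osteoblast replicate 2 (0.0527) or CMP replicate 1 (0.148).

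Genes of amino acid supply were called in 10 of 48 tested (53 in the table), 3 higher and 7 lower (median log2FC 0.16; 1 and 10, with a median of -0.30, with library totals). Among the lower, tat, the tyrosine aminotransferase, stood at 65.4 and 28.4 CPM in osteoblasts, against 244 and 289.96 in CMP (log2FC -2.51, SE 0.42, edgeR adjusted p = 0.0047). Hgd, which opens the ring of homogentisate, stood at 100.1 and 91.7 CPM in osteoblasts, against 565 and 895 in CMP (log2FC -2.93, SE 0.31, edgeR adjusted p = 4.78e-04), and gstz1, an isomerase that acts after it, at 35.3 and 45.1 CPM in osteoblasts, against 189.7 and 209 in CMP (log2FC -2.30, SE 0.29, edgeR adjusted p = 0.00119). OMP held more tat than CMP, at 686 and 492 CPM. Glula, glutamine synthetase, was among the 3 higher, at 1012 and 2060.2 CPM in osteoblasts, against 231 and 340.2 in CMP (log2FC 2.43, SE 0.40, edgeR adjusted p = 0.00467). Called members of that list numbered 6 without osteoblast replicate 2, 6 without CMP replicate 1, 5 without CMP replicate 2.

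Transcription regulators of mesenchyme and limb were called in 19 of 67 tested (105 in the table), 12 higher and 7 lower in osteoblasts, with a median log2FC of 0.47 (0.45 with genes at 0 reads set at their bound; 11 higher and 10 lower, with a median of -0.02, with library totals). Klf2b, a zinc finger factor, stood at 932 and 629 CPM in osteoblasts, against 20.5 and 9.54 in CMP (log2FC 5.70, SE 0.48, edgeR adjusted p = 1.38e-04). Mkxa, the tendon factor mohawk, stood at 70.34 and 111 CPM in osteoblasts, against 6.85 and 9.87 in CMP (log2FC 3.43, SE 0.42, edgeR adjusted p = 0.00101). Tfap2a, a factor of neural crest and epidermis, stood at 3.599 and 0.917 CPM in osteoblasts, against 52.3 and 61.2 in CMP (log2FC -4.72, SE 0.58, edgeR adjusted p = 9.26e-04). Without CMP replicate 2, 12 members were called. Among tendon and ligament genes 4 were higher and 9 lower of 18 tested (19 in the table), with a median log2FC of -1.30. The list took 0.481% and 0.366% of osteoblast reads, against 1.08% and 1.07% of CMP reads. Of the risers named here the most abundant was tnmd, the tendon membrane protein tenomodulin. Tnmd stood at 2912 and 2063 CPM in osteoblasts, against 196 and 197 in CMP (log2FC 3.66, SE 0.30, edgeR adjusted p = 1.30e-04), with OMP at 195 and 221 CPM. Tbx2b (23.2 and 29.3 CPM in osteoblasts, against 4.42 and 3.01 in CMP), of the T-box family, lost its call without CMP replicate 2 (0.0715).

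Signalling genes were next read by role, starting with BMP. Of 59 BMP genes in the table, 49 were tested, of which 7 were higher and 12 lower in osteoblasts (median log2FC -0.27). The ligand gene bmp8a stood at 289.9 and 370.3 CPM in osteoblasts, against 1.32 and 1.17 in CMP (log2FC 8.02, SE 0.42, edgeR adjusted p = 2.19e-05), and bmp3, a ligand that opposes other BMPs in bone, at 116 and 107 CPM in osteoblasts, against 2.87 and 2.01 in CMP (log2FC 5.51, SE 0.49, edgeR adjusted p = 2.05e-04). Among the lower were antagonists: nog1, noggin, stood at 1.96 and 1.15 CPM in osteoblasts, against 51.7 and 51.03 in CMP (log2FC -5.06, SE 0.48, edgeR adjusted p = 2.54e-04), and nbl1, of the DAN family, at 3.93 and 1.37 CPM in osteoblasts, against 145 and 228 in CMP (log2FC -6.19, SE 0.52, edgeR adjusted p = 1.37e-04). With chrdl2, 3 secreted BMP antagonists were thus nearly absent from osteoblasts. OMP held more nbl1 than CMP, at 427 and 511 CPM.

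Of 80 Wnt genes in the table, 59 were tested, of which 5 were higher and 18 lower (median log2FC -0.41). The ligand gene wnt5a stood at 0.982 and 1.83 CPM in osteoblasts, against 101 and 73.1 in CMP (log2FC -5.87, SE 0.49, edgeR adjusted p = 1.35e-04). Of secreted inhibitor genes, frzb stood at 23.6 and 9.39 CPM in osteoblasts, against 503 and 833 in CMP (log2FC -5.36, SE 0.58, edgeR adjusted p = 5.28e-04) and sfrp1a at 14.4 and 15.4 CPM in osteoblasts, against 170.04 and 307 in CMP (log2FC -3.998, SE 0.38, edgeR adjusted p = 2.64e-04). Rspo1, a secreted enhancer of Wnt signalling, had 1 and 1 reads in osteoblasts, against 88 and 138 in CMP (79.8-fold lower with a counting interval of 21.8 to 663). These 4 genes, of a ligand, inhibitors and an enhancer, were lower in osteoblasts. Without CMP replicate 2, 15 Wnt genes were called.

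FGF genes took 0.426% and 0.478% of osteoblast reads, against 0.147% and 0.138% of CMP reads, and fgfbp2a made up most of that. This gene for a secreted FGF-binding protein stood at 3638 and 4259 CPM in osteoblasts, against 27.8 and 71.6 in CMP (log2FC 6.31, SE 0.49, edgeR adjusted p = 1.15e-04). The receptor gene fgfr4 stood at 308 and 286 CPM in osteoblasts, against 19.9 and 7.36 in CMP (log2FC 4.46, SE 0.51, edgeR adjusted p = 6.68e-04), whereas fgfrl1a, a receptor without a kinase, stood at 26.8 and 18.8 CPM in osteoblasts, against 227 and 187 in CMP (log2FC -3.19, SE 0.40, edgeR adjusted p = 0.00105). Unlike fgf23, 2 other ligand genes were lower: fgf7 stood at 8.83 and 5.499 CPM in osteoblasts, against 155 and 90.02 in CMP (log2FC -4.11, SE 0.45, edgeR adjusted p = 5.30e-04), and fgf18a had 0 and 1 reads in osteoblasts, against 57 and 74 in CMP (92.5-fold lower with a counting interval of 16.3 to 3682). In all 7 were higher and 8 lower of 29 tested (44 in the table; median log2 fold change -0.32).

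TGF-beta and activin genes were called in 6 of 28 tested (31 in the table), 2 higher and 4 lower (median log2FC -0.08; 1 and 5 with library totals). Tgfb2l, a ligand, was higher at 28.1 and 41.7 CPM in osteoblasts, against 1.104 and 0.335 in CMP (log2FC 5.63, SE 0.61, edgeR adjusted p = 5.19e-04), while tgfb3 was lower at 38.61 and 51.8 CPM in osteoblasts, against 187 and 234 in CMP (log2FC -2.22, SE 0.32, edgeR adjusted p = 0.002). Mstnb, myostatin, stood at 6.54 and 4.35 CPM in osteoblasts, against 85.02 and 64.3 in CMP (log2FC -3.79, SE 0.45, edgeR adjusted p = 8.20e-04). Inhbab, an activin subunit (8.83 and 5.499 CPM in osteoblasts, against 30.9 and 38.8 in CMP), lost its call without osteoblast replicate 2 (0.0751) or CMP replicate 2 (0.0641).

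Retinoic acid genes fell in 8 and rose in 2 of 24 tested (32 in the table; median log2 fold change -0.57). Genes of both synthesis and breakdown were among those lower in osteoblasts. The synthesis gene aldh1a2 stood at 0.982 and 0.229 CPM in osteoblasts, against 32.02 and 21.2 in CMP (log2FC -5.52, SE 0.69, edgeR adjusted p = 0.00108), rdh10a, which makes its substrate, at 0.654 and 2.75 CPM in osteoblasts, against 20.5 and 16.4 in CMP (log2FC -3.33, SE 0.56, edgeR adjusted p = 0.00504), and aldh1a3 had 2 and 0 reads in osteoblasts, against 69 and 151 in CMP (77.7-fold lower with a counting interval of 21.3 to 646). The breakdown gene cyp26b1 stood at 25.8 and 10.3 CPM in osteoblasts, against 721 and 758 in CMP (log2FC -5.37, SE 0.46, edgeR adjusted p = 1.62e-04) and the binding protein gene crabp2a at 16.03 and 15.12 CPM in osteoblasts, against 231 and 336 in CMP (log2FC -4.19, SE 0.37, edgeR adjusted p = 1.97e-04). Another breakdown gene, cyp26a1, had 63 and 96 reads in osteoblasts, against 13 and 0 in CMP and so stood on the osteoblast side, a call lost without osteoblast replicate 1 (0.0726) or osteoblast replicate 2 (0.111) or CMP replicate 2 (0.0656). Called members of the retinoic acid list numbered 5 without osteoblast replicate 2, 6 without CMP replicate 2.

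Hedgehog genes were called in 6 of 15 tested (20 in the table), ihha higher and 5 lower (median log2FC -0.97). Among the lower genes, gas1a, a co-receptor, stood at 20.6 and 30.02 CPM in osteoblasts, against 212 and 228 in CMP (log2FC -3.11, SE 0.34, edgeR adjusted p = 5.28e-04), the transcription factor gene gli2b at 9.49 and 2.29 CPM in osteoblasts, against 59.4 and 67.8 in CMP (log2FC -3.48, SE 0.60, edgeR adjusted p = 0.00561) and hhip, which traps the ligand, at 0.982 and 0.917 CPM in osteoblasts, against 11.5 and 12.2 in CMP (log2FC -3.61, SE 0.55, edgeR adjusted p = 0.00301). Boc, another co-receptor (22.9 and 20.6 CPM in osteoblasts, against 90.8 and 64.9 in CMP), lost its call without osteoblast replicate 2 (0.0761) or CMP replicate 1 (0.0795).

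Notch genes were called in 5 of 23 tested (36 in the table), 2 higher and 3 lower (median log2FC 0.46 beside -0.02 over all genes). Dld, a delta ligand, stood at 64.5 and 35.7 CPM in osteoblasts, against 1.99 and 0.502 in CMP (log2FC 5.37, SE 0.91, edgeR adjusted p = 0.00511) and the target gene heyl at 19.3 and 19.7 CPM in osteoblasts, against 1.104 and 1.67 in CMP (log2FC 3.77, SE 0.54, edgeR adjusted p = 0.00211). Dll4, another ligand (2.29 and 2.98 CPM in osteoblasts, against 15.9 and 10.4 in CMP), lost its call without osteoblast replicate 1 (0.107) or osteoblast replicate 2 (0.0906) or CMP replicate 1 (0.132). The modifier gene rfng (9.49 and 9.85 CPM in osteoblasts, against 22.97 and 43.8 in CMP) lost it without osteoblast replicate 1 (0.116) or osteoblast replicate 2 (0.131) or CMP replicate 2 (0.249), and the receptor gene notch3 (4.91 and 3.67 CPM in osteoblasts, against 14.1 and 14.7 in CMP) without osteoblast replicate 1 (0.106) or osteoblast replicate 2 (0.254) or CMP replicate 1 (0.153) or CMP replicate 2 (0.185). Called members of the Notch list numbered 2 without osteoblast replicate 1, 2 without osteoblast replicate 2, 3 without CMP replicate 2.

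IGF genes were called in 8 of 24 tested (28 in the table), 2 higher and 6 lower (median log2FC -0.81). The ligand gene igf2a stood at 15.7 and 11.2 CPM in osteoblasts, against 166 and 230.2 in CMP (log2FC -3.88, SE 0.36, edgeR adjusted p = 2.40e-04), and pappaa, a protease that frees IGF from its binding proteins, at 1.96 and 0.687 CPM in osteoblasts, against 46.6 and 45.01 in CMP (log2FC -5.16, SE 0.57, edgeR adjusted p = 5.48e-04). On the other side igfbp3, a binding protein, stood at 1149 and 964 CPM in osteoblasts, against 247 and 189.9 in CMP (log2FC 2.27, SE 0.29, edgeR adjusted p = 0.00127), and stc2a, a stanniocalcin, at 49.7 and 66.9 CPM in osteoblasts, against 8.17 and 8.199 in CMP (log2FC 2.83, SE 0.38, edgeR adjusted p = 0.00158). The growth factor gene and its protease were thus lower, and the binding protein was higher, in osteoblasts. Without CMP replicate 1 or 2, 5 IGF genes were called.

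Adhesion genes were called in 13 of 43 tested (62 in the table), 8 higher and 5 lower (median log2FC -0.06; 7 and 11, with a median of -0.54, with library totals). Beside megf10, cadm1b and cdh11, the neural adhesion genes ncam1a at 247 and 251 CPM in osteoblasts, against 32.02 and 27.8 in CMP (log2FC 3.06, SE 0.33, edgeR adjusted p = 5.30e-04) and cadm2a at 214 and 157 CPM in osteoblasts, against 40.4 and 23.3 in CMP (log2FC 2.55, SE 0.37, edgeR adjusted p = 0.00211) rose. Among 21 integrins tested 2 were higher and 7 lower (median log2FC -0.54; 1 and 8 with library totals). Itga10, a collagen receptor chain, stood at 802 and 891 CPM in osteoblasts, against 16.6 and 14.7 in CMP (log2FC 5.76, SE 0.34, edgeR adjusted p = 3.08e-05). The chains itga5 (69.04 and 26.8 CPM in osteoblasts, against 541 and 328 in CMP; log2FC -3.19, SE 0.53, edgeR adjusted p = 0.00468), which binds fibronectin, itga9 (-4.13), itga11b (-3.06), a collagen receptor of fibroblasts, and itgb1b.2 (-3.38) fell. Called integrins numbered 5 without CMP replicate 2.

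Most channel and transporter genes were not called. Of 54 tested on the list of ion transport in bone (78 in the table), 6 were higher and 4 lower. That is 18.5% called, above the 9.55% over all genes tested. The median log2FC was 0.07, and with library totals 5 were higher and 7 lower, with a median of -0.40. The aquaglyceroporin gene aqp3b stood at 211 and 232 CPM in osteoblasts, against 2.87 and 3.01 in CMP (log2FC 6.22, SE 0.37, edgeR adjusted p = 3.08e-05). Slc9a1a, a sodium-proton exchanger, stood at 58.9 and 63.9 CPM in osteoblasts, against 4.64 and 2.01 in CMP (log2FC 4.23, SE 0.48, edgeR adjusted p = 6.54e-04), and the citrate transporter gene slc13a5b had 109 and 165 reads in osteoblasts, against 2 and 0 in CMP (194-fold higher with a counting interval of 53.2 to 1609.5). All 3 were low in both CMP libraries.

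Few housekeeping genes were called in the fit by group alone. Of 123 secretory pathway genes tested (126 in the table), 3 were higher and 0 lower, with a median log2FC of 0.46 (-0.03 with library totals). They were creb3l1, kdelr2b, a receptor that returns proteins to the endoplasmic reticulum (193 and 231 CPM in osteoblasts, against 83.7 and 83.2 in CMP), and lman1, a cargo receptor (167 and 201 CPM in osteoblasts, against 76.4 and 94.5 in CMP). Kdelr2b lost its call without osteoblast replicate 2 (0.11) or CMP replicate 1 (0.117) or CMP replicate 2 (0.138), and lman1 without osteoblast replicate 1 (0.0839) or osteoblast replicate 2 (0.248) or CMP replicate 1 (0.279) or CMP replicate 2 (0.159). DESeq2 called 7 of the 123, and 18 had an unadjusted p under 0.05 in edgeR; with a library left out, edgeR called 1 without osteoblast replicate 2, 1 without CMP replicate 1, 1 without CMP replicate 2. No gene of 69 cell cycle genes tested (80 in the table) was called by edgeR, with 9 at an unadjusted p under 0.05 and 2 called by DESeq2; the median log2 fold change was -0.47, and without either osteoblast replicate edgeR called 1. Foxm1, counted with the forkhead genes and not on the cell cycle list, was called lower. It had 0 reads in osteoblasts and 36 in CMP (at least 8.48-fold lower), and its call did not hold in each fit with a library left out. Of 92 cytosolic ribosomal protein genes tested, edgeR and DESeq2 called 0, 2 had an unadjusted p under 0.05, and the median was -0.28. For 86 nuclear genes of oxidative phosphorylation these numbers were 0, 0 and 2, with a median of 0.32 (-0.16 with library totals). With the replicate number as a block, edgeR called 22 secretory pathway genes higher and 1 lower. That fit also called 6 cell cycle and 3 cytosolic ribosomal protein genes lower, and 2 genes of oxidative phosphorylation higher.

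Of 75 early response and heat shock genes tested (79 in the table), 3 were higher and 3 lower (median log2FC -0.02). That is a share of 8% beside 9.55% over all genes tested. With library totals 2 were higher and 6 lower. With the replicate number as a block 9 were higher and 8 lower, in a fit that called 2217 of the 13399 genes tested. The small heat shock gene hspb1 stood at 20828 and 4433 CPM in osteoblasts, against 4632 and 675 in CMP, and the chaperone gene hsp90aa1.2 at 24818 and 7006 CPM in osteoblasts, against 24783 and 10519 in CMP. Replicate 1 was the higher one in both groups. Within each replicate number hspb1 ran higher in osteoblasts than in CMP, with no call in the fit by group. Beside klf2b the called genes were egr3 (37.3 and 17.2 CPM in osteoblasts, against 3.31 and 2.01 in CMP), dusp2 (59.5 and 50.2 CPM in osteoblasts, against 19.2 and 12.7 in CMP), socs3a (46.8 and 42.4 CPM in osteoblasts, against 116 and 108 in CMP), socs3b (50.7 and 38.04 CPM in osteoblasts, against 176 and 138 in CMP) and jund (15.7 and 14.2 CPM in osteoblasts, against 35.1 and 40.8 in CMP). Egr3 lost its call without osteoblast replicate 1 (0.0593) or CMP replicate 2 (0.0922), dusp2 without osteoblast replicate 1 (0.105) or osteoblast replicate 2 (0.0693) or CMP replicate 1 (0.0896) or CMP replicate 2 (0.239), and socs3b, an inhibitor of cytokine signalling, without osteoblast replicate 2 (0.0878) or CMP replicate 1 (0.0692). Socs3a lost its call without osteoblast replicate 1 (0.0894) or osteoblast replicate 2 (0.161) or CMP replicate 1 (0.129) or CMP replicate 2 (0.105), and jund without osteoblast replicate 1 (0.152) or osteoblast replicate 2 (0.242) or CMP replicate 1 (0.139) or CMP replicate 2 (0.235). Called members of the early response list numbered 3 without osteoblast replicate 1, 3 without osteoblast replicate 2, 2 without CMP replicate 1, 2 without CMP replicate 2.

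Sugar, lipid and cytokine genes were mostly not called or lower in osteoblasts. Of 47 genes of glycolysis and glucose tested (67 in the table) 2 were higher and 5 lower (median log2FC -0.22), 14.9% beside 9.55% over all genes tested. Pygl, which breaks down glycogen, had 85 and 83 reads in osteoblasts, against 0 and 0 in CMP (at least 79.3-fold higher), while pck1, of glucose synthesis, stood at 0.654 and 1.83 CPM in osteoblasts, against 25.4 and 15.2 in CMP (log2FC -3.92, SE 0.65, edgeR adjusted p = 0.00478). Called members of that list numbered 3 without osteoblast replicate 2, 3 without CMP replicate 1, 3 without CMP replicate 2. Lipid and sterol genes were called in 8 of 36 tested (62 in the table), 1 higher and 7 lower (median log2FC -0.34). The prostaglandin synthase genes ptgdsb.1 (154 and 42.4 CPM in osteoblasts, against 894 and 1079 in CMP; log2FC -3.33, SE 0.54, edgeR adjusted p = 0.00404) and ptgdsb.2 (80.8 and 47.7 CPM in osteoblasts, against 556 and 722 in CMP; log2FC -3.32, SE 0.35, edgeR adjusted p = 4.65e-04) and the prostaglandin-degrading gene hpgd (0.654 and 1.37 CPM in osteoblasts, against 34.9 and 50.03 in CMP; log2FC -5.29, SE 0.68, edgeR adjusted p = 0.00126) fell. Hsd11b2, which inactivates cortisol, stood at 18.98 and 19.9 CPM in osteoblasts, against 99.6 and 164 in CMP (log2FC -2.76, SE 0.46, edgeR adjusted p = 0.00487).

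Chemokine, cytokine and complement genes fell in 31 and rose in 2 of 75 tested (116 in the table; median log2 fold change -1.52). Angptl2a, a secreted angiopoietin-like protein, stood at 22.6 and 13.1 CPM in osteoblasts, against 552 and 321 in CMP (log2FC -4.62, SE 0.43, edgeR adjusted p = 2.40e-04). Mdka, the growth factor midkine, stood at 165 and 143 CPM in osteoblasts, against 967 and 1561 in CMP (log2FC -3.04, SE 0.32, edgeR adjusted p = 4.46e-04), the complement gene c4 at 3.93 and 2.98 CPM in osteoblasts, against 89.2 and 75.8 in CMP (log2FC -4.58, SE 0.45, edgeR adjusted p = 2.99e-04) and csf1b, a growth factor of macrophages and osteoclasts, at 16.03 and 10.999 CPM in osteoblasts, against 129.6 and 99.2 in CMP (log2FC -3.09, SE 0.34, edgeR adjusted p = 5.78e-04). OMP held more csf1b than CMP, at 218 and 248 CPM. Called members of this list numbered 21 without CMP replicate 2.

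Markers of other cells that a gate could hold were read in the same way. Of 36 epidermal genes in the table, 35 were tested, and krt4, krt15, krt91 and krt92 were lower in osteoblasts while 31 were not called. That is 11.4% called, near the 9.55% over all genes tested. Krt4 stood at 877 and 1155 CPM in osteoblasts, against 5504 and 6345 in CMP (log2FC -2.54, SE 0.27, edgeR adjusted p = 4.27e-04), krt91 at 904 and 373 CPM in osteoblasts, against 3231 and 3627 in CMP (log2FC -2.43, SE 0.39, edgeR adjusted p = 0.0043) and krt15 at 125 and 45.1 CPM in osteoblasts, against 709.5 and 499 in CMP (log2FC -2.83, SE 0.47, edgeR adjusted p = 0.00474). The summed epidermal level was 11981 and 13509 CPM in osteoblasts and 22530 and 23264 CPM in CMP, and 2.41% and 2.86% of CMP reads came from these genes. Not all abundant keratins went that way. Krt8 (1519 and 1691 CPM in osteoblasts, against 1278 and 1396 in CMP) and krt18 (1362 and 1629, against 1004 and 750) ran higher in osteoblasts, with no call. The defining epidermal genes cdh1, epcam and tp63 stood at 1.83 to 36.6 CPM in osteoblasts and 1.32 to 16.8 CPM in CMP, with no call. The part of epidermal cells in the genes lower in osteoblasts was not tested.

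Mural cell genes were called lower in 6 of 11 tested (14 in the table), with 0 higher. Their summed level was 432 and 320 CPM in osteoblasts, against 967 and 1073 CPM in CMP. Acta2, smooth muscle actin, had 0 and 5 reads in osteoblasts, against 264 and 539 in CMP, tagln stood at 15.05 and 9.39 CPM in osteoblasts, against 177 and 268 in CMP (log2FC -4.20, SE 0.39, edgeR adjusted p = 2.40e-04) and myh11a had 0 and 0 reads in osteoblasts, against 40 and 76 in CMP (at least 27.3-fold lower). Rgs5b stood at 46.5 and 28.6 CPM in osteoblasts, against 300.1 and 244 in CMP (log2FC -2.86, SE 0.34, edgeR adjusted p = 8.71e-04). Pdgfrb (-0.70) and cspg4 (0.10) were not called, foxc1a had 0 reads, and ndufa4l2a and desma had 11 reads or fewer in each group. Also not called were cnn1b, myl9a and myl9b. Cnn1b (33.05 and 22.5 CPM in osteoblasts, against 13.5 and 13.7 in CMP) and myl9a (49.4 and 54.1, against 20.98 and 37.8) ran higher in osteoblasts. Myl9b ran lower (140.4 and 137.9, against 176.9 and 189.6). The part of contractile cells in the falls of mural cell genes was not tested.

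Of 24 leukocyte genes 10 were tested, with mmp9 higher and mmp13a lower. Ptprc and mpeg1.1, which define leukocytes, had no reads in osteoblasts and 4 and 0 in CMP. Of the tested leukocyte genes without a call, only rac2 had more reads in osteoblasts (53, against 34 in CMP). Cd74a (195 reads in osteoblasts, against 403 in CMP) and si:ch211-212k18.7 (19 against 111) were among those with more in CMP. These reads are not scaled for depth. Of 8 osteoclast genes 3 were tested, and tnfrsf11a, the RANK receptor, was higher in osteoblasts at 335 and 226 CPM in osteoblasts, against 57.9 and 52.2 in CMP (log2FC 2.35, SE 0.39, edgeR adjusted p = 0.00454). The osteoclast genes acp5a, acp5b, dcstamp, ocstamp and calcr had 0 to 11 reads in each group, and ctsk was not called (185 and 210.3 CPM in osteoblasts, against 237 and 246 in CMP). No gene was called by edgeR among the markers tested of endothelium (4), pigment cells (2), nerve and glia (6), muscle (1) and erythrocytes (3). DESeq2 called 2 endothelial, 1 pigment cell and 1 nerve gene, and 2, 1 and 2 had an unadjusted p under 0.05 in edgeR. For muscle and erythrocyte genes both numbers were 0. With 1 of the 4 libraries left out, edgeR called at most 2 endothelial genes (without CMP replicate 1), 1 pigment cell gene (without osteoblast replicate 2) and 1 nerve gene (without either osteoblast replicate). The defining endothelial genes cdh5 and tie1 had 0 reads in all 4 libraries. The 4 tested had reads, here not scaled for depth. They were fli1a (187 reads in osteoblasts, against 313 in CMP), egfl7 (14 against 112), erg (218 against 70) and sox18 (463 against 409).

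Differences were also read within each replicate number, osteoblast 1 minus CMP 1 and osteoblast 2 minus CMP 2, on the log2 CPM scale. All 1280 called genes had the same sign in both numbers, which their non-overlap already fixes. Sp7 differed by 6.06 within replicate 1 and 6.07 within replicate 2, and bglap by 8.51 within replicate 1 and 8.10 within replicate 2. Hapln1a differed by -3.39 within replicate 1 and -3.70 within replicate 2. These 3 genes were nearly even between the numbers. The called genes with the widest gap between the numbers were fhl2a, a LIM domain gene (13 and 0 reads in osteoblasts, against 446 and 1201 in CMP), the angiotensin receptor gene agtr2 (8 and 0 reads in osteoblasts, against 155 and 454 in CMP) and quo (9 and 0 reads in osteoblasts, against 61 and 154 in CMP). In all 3 osteoblast replicate 2 held 0 reads, so the size of the gap and this order depend on the prior count. Quo lost its call without osteoblast replicate 2 (0.0576) or CMP replicate 2 (0.163).

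**Figure D5:**
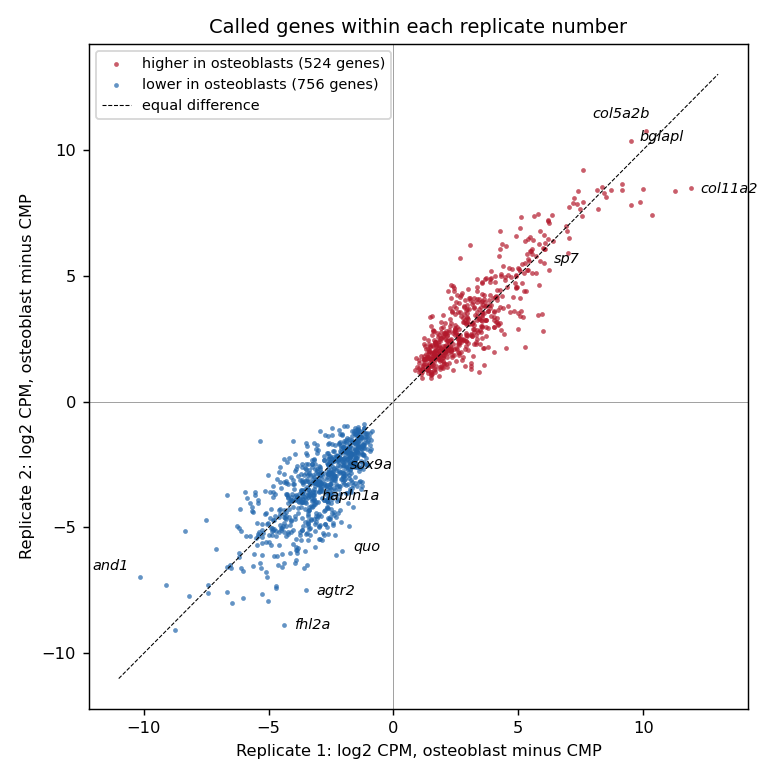
Each point is 1 of the 1280 called genes, with the log2 CPM difference of osteoblast over CMP within replicate 1 on the x axis and within replicate 2 on the y axis; red genes are higher and blue genes lower in osteoblasts, and the dashed line marks equal differences. Most points follow the line, and fhl2a, agtr2 and quo lie furthest below it, at a distance that depends on the prior count since osteoblast replicate 2 held 0 reads of them.

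Set beside these groups, OMP stood nearer to CMP for most called genes. On the log2 scale with 0.5 CPM added, its mean was nearer to CMP than to osteoblasts for 405 of the 524 genes higher in osteoblasts (77.3%) and for 573 of the 756 lower ones (75.8%). It lay between the means of both groups for 402 and 525 of these genes. OMP shares no library with either group, and no test was made of its position. Among bone genes OMP held 1252 and 1291 CPM of bglap and 10.4 and 8.45 CPM of sp7, both between osteoblasts and CMP and nearer to CMP. The mineral list took 1.76% and 2.37% of OMP reads, against 18.6% and 26.2% in osteoblasts and 0.879% and 1.08% in CMP. Cdh11 stood nearer to osteoblasts on the log2 scale. It had 639 and 568 CPM in OMP, against 1315 and 1074 in osteoblasts and 92.5 and 64.6 in CMP. The fibril collagen list took 11.2% and 11.9% of OMP reads, against 11.6% and 11.7% in osteoblasts and 5.20% and 5.02% in CMP. Among mesenchyme genes OMP held 141 and 433 CPM of and1 and 395 and 502 CPM of hapln1a, which for hapln1a was close to the osteoblast level.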

How the data were processed

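RNA of fluorescence-sorted cells was measured in 6 libraries. The authors deposited 1 table of raw counts per transcript, with 75811 rows of which 6 are transgenes. RPKM and TPM values and transcript lengths were deposited by the authors beside the counts; RPKM and TPM were not used, and lengths served only for CPM per kilobase. The submitters' processing notes name HISAT2 2.2.1, featureCounts 2.0.3 and build GRCz11. The sources used here do not state the strand setting, so overlapping and antisense genes could not be told apart. The labels name a WES (whole exome) rapid kit for the libraries and no capture step, so a gene at 0 reads is not shown to lack RNA.

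A read that fits several transcripts of 1 gene was counted on each: 2296 genes with more than 1 transcript and 600 reads or more had a transcript sum of 2 times the highest transcript (median). For each of 30837 symbols the transcript with most reads in all was therefore kept. Of the transgenes, 2 had empty cells and were left out, which made 30841 rows. Their counts went through edgeR 4.0.16 under R 4.3.3, with TMM scaling, filterByExpr by group and a two-sided quasi-likelihood test. The model held group alone over the 6 libraries, which left 3 residual degrees of freedom, and p-values were adjusted by Benjamini-Hochberg over 13399 genes. The filter and the scaling also took all 6 libraries, and with the 4 libraries alone 12651 genes passed the filter. The biological coefficient of variation was 0.3765. SE is the size of the log2 fold change over the square root of F. CPM values are TMM-scaled, so they are not shares of the reads. The fit was tested on simulated data first. Alternatives were DESeq2 1.42.0, its size factors, library totals, no filter, sums over transcripts, normalization without heat shock genes, the 4 libraries alone, a replicate block, and each library left out.

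Where a group held 0 reads, a fold is a bound against 3 reads over the group; at 1 to 3 reads it is a ratio of depth-scaled reads with an exact 95% counting interval. Named genes are the sort genes and transgenes, the 12 largest called rises and falls at a mean log2 CPM of at least 4 with non-overlapping groups and no clone name, the 8 smallest p-values each way, the 5 most abundant genes per group, the 5 called members of each list with the smallest p, members of the bone, cartilage, mesenchyme, early response and marker lists, and the 3 widest gaps between replicate numbers. The values of 2 list members are not reported here. Comparison, lists and rule were chosen with earlier results of these data known. Of 1825 list memberships 1784 matched the table, and 22227 genes had an accession in a RefSeq table of assembly GRCz12tu, used for names only. Neither coordinates nor sequences are given, since no annotation of GRCz11 was used here.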

Additional observations from a re-analysis of the deposited data

How the results depend on the processing

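With the replicate number as a block edgeR called 2217 genes, 947 higher and 1270 lower, among them all 1280. Deviations of libraries with the same number correlated at 0.2961 between osteoblasts and CMP, 0.3825 between osteoblasts and OMP and 0.3367 between CMP and OMP over 13399 genes, but the labels do not say what the numbers share. Under the block 22 secretory pathway genes were higher and 1 lower, 6 cell cycle and 3 cytosolic ribosomal protein genes were lower, and 2 genes of oxidative phosphorylation were higher. With library totals 392 genes were higher and 1268 lower. Leaving out 1 library at a time gave 734 to 1339 called genes, 275 to 552 higher and 438 to 787 lower. Of the 1280 genes, 927 and 789 were called without osteoblast replicate 1 and 2, and 806 and 712 without CMP replicate 1 and 2. The number called stayed within 1.5 times with the 4 libraries alone (1368), DESeq2 size factors (1257), no filter (1857), sums over transcripts (1107), normalization without heat shock genes (1278) and DESeq2 (1582). No named gene reversed its call in sign under these alternatives. The 437 named genes include genes without a call, which had none to lose. Among them 2 lost their call with DESeq2, 23 with sums over transcripts and 10 with library totals. With 2 libraries a group, the spread rests on 3 residual degrees of freedom, and depth limits the genes with few reads.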

Other observations

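Beyond the functions above, guidance and sugar-modifying genes were called in both directions. Of 40 semaphorin, plexin and neuropilin genes tested (46 in the table), 6 were higher and 2 lower in osteoblasts, 20% beside 9.55% over all genes tested. Their median log2FC was 0.52, and with library totals 6 were higher and 8 lower, with a median of 0.04. Sema5a, a membrane semaphorin, stood at 505 and 375 CPM in osteoblasts, against 26.1 and 27.3 in CMP (log2FC 4.04, SE 0.33, edgeR adjusted p = 1.32e-04), and sema3d, a secreted one, at 99.1 and 166 CPM in osteoblasts, against 13.7 and 17.9 in CMP (log2FC 3.06, SE 0.38, edgeR adjusted p = 9.69e-04). Nrp1a, a receptor for secreted semaphorins, stood at 131 and 74.9 CPM in osteoblasts, against 20.98 and 9.704 in CMP (log2FC 2.75, SE 0.47, edgeR adjusted p = 0.00578). These 3 genes were thus higher in osteoblasts. Called members of the semaphorin family numbered 5 without CMP replicate 2. Among 25 Eph and ephrin genes tested 3 were higher and 2 lower, with ephb1 at 0 and 0 reads in osteoblasts, against 32 and 64 in CMP (at least 22.6-fold lower). Epha4b stood at 41.9 and 36.2 CPM in osteoblasts, against 6.404 and 9.704 in CMP and lost its call without CMP replicate 1 (0.0564). Called members of the Eph family numbered 3 without osteoblast replicate 1, 3 without CMP replicate 1, 2 without CMP replicate 2.

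Of 48 glycosyl and sulfotransferase genes of proteoglycans tested (78 in the table), 4 were higher and 5 lower (3 and 8 with library totals). Chst3b, which sulfates chondroitin, stood at 64.1 and 101 CPM in osteoblasts, against 0.662 and 0.502 in CMP (log2FC 7.11, SE 0.53, edgeR adjusted p = 1.07e-04), and ext1c, of heparan sulfate chain synthesis, at 120.4 and 140.5 CPM in osteoblasts, against 12.6 and 10.4 in CMP (log2FC 3.51, SE 0.34, edgeR adjusted p = 3.11e-04). Csgalnact1a, which starts chondroitin chains, was on the CMP side at 0.327 and 0.687 CPM in osteoblasts, against 32.5 and 44.8 in CMP (log2FC -6.11, SE 0.58, edgeR adjusted p = 2.64e-04). Called members of this family numbered 5 without osteoblast replicate 1, 5 without CMP replicate 2. Of 200 solute carriers tested (400 in the table), 15 were higher and 13 lower, 14% beside 9.55% over all genes tested. Their median log2FC was 0.14, and with library totals 10 were higher and 20 lower, with a median of -0.35. The organic cation transporter gene slc22a2 stood at 0.982 and 0.687 CPM in osteoblasts, against 27.2 and 22.8 in CMP (log2FC -4.89, SE 0.55, edgeR adjusted p = 6.11e-04). Called solute carriers numbered 17 without CMP replicate 1, 13 without CMP replicate 2. Of 13 regulators of G protein signalling tested, 2 were higher and 3 lower; rgs2 rose (25.5 and 20.9 CPM in osteoblasts, against 0.442 and 0.502 in CMP; log2FC 5.53, SE 0.68, edgeR adjusted p = 9.58e-04) while rgs4 fell (0.327 and 1.83 CPM in osteoblasts, against 26.3 and 26.3 in CMP; log2FC -4.46, SE 0.61, edgeR adjusted p = 0.00167). Among cadherins, pcdh17 stood at 42.2 and 28.2 CPM in osteoblasts, against 3.53 and 2.51 in CMP (log2FC 3.54, SE 0.53, edgeR adjusted p = 0.00256) and pcdh18a had 0 and 0 reads in osteoblasts, against 74 and 123 in CMP (at least 46.4-fold lower). The sphingosine phosphate receptor gene s1pr2 (12.1 and 20.6 CPM in osteoblasts, against 79.5 and 86.5 in CMP; log2FC -2.33, SE 0.38, edgeR adjusted p = 0.0043) and the adhesion receptor gene adgrg6 (6.22 and 2.98 CPM in osteoblasts, against 39.1 and 47.02 in CMP; log2FC -3.25, SE 0.47, edgeR adjusted p = 0.00223) were lower in osteoblasts. These 2 receptors belong to a family in which 3 genes were higher and 4 lower of 42 tested (2 and 5 with library totals), and whose called members numbered 3 without osteoblast replicate 1, 2 without osteoblast replicate 2, 2 without CMP replicate 2.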
